A study of Mus musculus with 9 samples.

Results

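The p21-activated kinases are serine/threonine kinases that bind the active, GTP-loaded form of the small GTPases Cdc42 and Rac and pass their signal on to the cytoskeleton. Members are divided into group I (Pak1, Pak2 and Pak3), which are held inactive by an autoinhibitory domain until the GTPase binds, and group II (Pak4 and Pak6 among those described here), which are regulated differently. Known actions include phosphorylation of LIM kinase, which in turn inactivates the actin-severing protein cofilin, and in mouse skeletal muscle Pak1 has been linked to insulin-stimulated glucose uptake. The kinases were taken as the 5 genes with the symbols Pak1, Pak2, Pak3, Pak4 and Pak6 among the 55536 genes of the deposited tables. The remaining gene of the family carries the older symbol Pak7 in these tables, was not among the 5, and had 1 count over all libraries.

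The data are 9 RNA sequencing libraries of muscle from male mice of the outbred ICR stock. The aged GW8510 group (libraries 1, 3 and 4) was 18 months old and received GW8510 at 2 mg/kg intraperitoneally every day for 14 days, in a sodium carboxymethylcellulose solution. The aged vehicle group (libraries 1, 3 and 4) was also 18 months old, and the young vehicle group (libraries 2, 3 and 4) was 2 months old, and both are labelled as vehicle-treated. GW8510 is a benzenesulfonamide known as an inhibitor of cyclin-dependent kinases, and the series title names the p21-activated kinases as what it interacts with. The measurements below concern the abundance of the kinases' transcripts and not their activity or their binding of GW8510. The labels name neither the muscle taken nor the time of day, and do not state that each library is a separate animal, so a p-value here reflects how far samples of a group lie apart, which may be technical. No young group received GW8510.

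The question asked of each gene was whether its transcript level differed between the groups. Of the 5 kinases, Pak1, Pak2 and Pak4 could be tested, and Pak3 and Pak6 were too low to measure. None of the 3 tested kinases passed the threshold in any of the 3 comparisons (edgeR quasi-likelihood test, Benjamini-Hochberg adjusted over 14384 genes, adjusted p under 0.05). Among all genes tested, 0% were called for aged GW8510 over aged vehicle, 1.22% for aged vehicle over young vehicle and 0.751% for aged GW8510 over young vehicle. At such shares, 0 of 3 kinases is near the background in each comparison. The fitted folds of the 3 kinases lay between 0.795 and 1.03, and their 95% confidence intervals together ran from 0.538-fold to 1.49-fold. A p that misses the threshold does not show that the levels were equal, and these intervals give the sizes of change that the data leave possible.

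The kinases are close relatives, and a count per gene is readable only if reads from their transcripts can be told apart. The stretch shown for each is coding sequence of the kinase domain. It covers the end of the activation loop, where an activating phosphorylation takes place, and a few codons beyond it. The stretch was placed by a peptide motif that all 5 share, and whether the family is most alike there was not tested. The sequence is given as mRNA sense 5′ to 3′ from the GENCODE M21 transcripts (GRCm38), with capitals at the 31 of 60 positions that carry the same base in all 5 genes.
Pak1: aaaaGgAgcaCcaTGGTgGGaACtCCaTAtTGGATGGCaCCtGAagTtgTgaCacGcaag
Pak2: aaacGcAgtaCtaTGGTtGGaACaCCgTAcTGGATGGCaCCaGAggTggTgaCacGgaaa
Pak3: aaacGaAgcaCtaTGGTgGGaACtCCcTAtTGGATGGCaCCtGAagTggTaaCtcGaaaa
Pak4: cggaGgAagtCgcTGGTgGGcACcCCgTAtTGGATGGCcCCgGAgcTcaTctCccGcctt
Pak6: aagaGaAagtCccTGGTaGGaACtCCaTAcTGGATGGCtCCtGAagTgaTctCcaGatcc

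Within this stretch Pak1 and Pak3, both of group I, shared 85.0% of bases, Pak2 and Pak3 shared 81.7%, and Pak1 and Pak2 shared 78.3%. The group II kinases Pak4 and Pak6 shared 68.3%, and the lowest identity was 56.7%, between Pak4 and either Pak2 or Pak3. Between the transcripts that these stretches were taken from, the longest run of identical bases was 12 to 37 bases for any pair, with 37 bases between Pak4 and Pak6 and 23 bases between Pak1 and Pak3. No window of 50 bases in these transcripts of Pak1, Pak2 or Pak3 occurred in a transcript of any other gene. The Pak2 counts nevertheless carried fractions in 5 of 9 libraries, 907.64 in young vehicle library 2 for example, and the source of these fractions was not tested. In Pak4, 21 of 2850 such windows (0.737%) also occurred in a transcript of the olfactory receptor gene Olfr961, and in Pak6, 25 of 3628 (0.689%) occurred in other genes. No window of 100 bases was shared for any of the 5. In the annotation, Pak4 shares 39 exonic bases with its same-strand neighbour Samd4b, and all 9 Pak4 counts were whole numbers. The read length is not given in the sources used here.

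The level of each kinase per transcript length was read from the deposited TPM values (a scale that divides by transcript length, so that genes can be compared). In TPM the order in every library was Pak1, then Pak2, then Pak4, and the ranges of these 3 over the 9 libraries did not overlap. Pak1 ran from 21.87 to 36.42 TPM with a median of 32.24, Pak2 from 3.57 to 7.0 TPM with a median of 4.84, and Pak4 from 0.61 to 1.63 TPM with a median of 1.13. Pak6 (0 to 0.07 TPM) and Pak3 (0 to 0.09 TPM) overlapped each other and lay below Pak4 in every library. By mean TPM Pak1 ranked 2219th among all genes and stood above 84.6% of the genes tested. Pak2 stood above 50.9% of the genes tested and Pak4 above 23.8%.

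**Figure D1:**
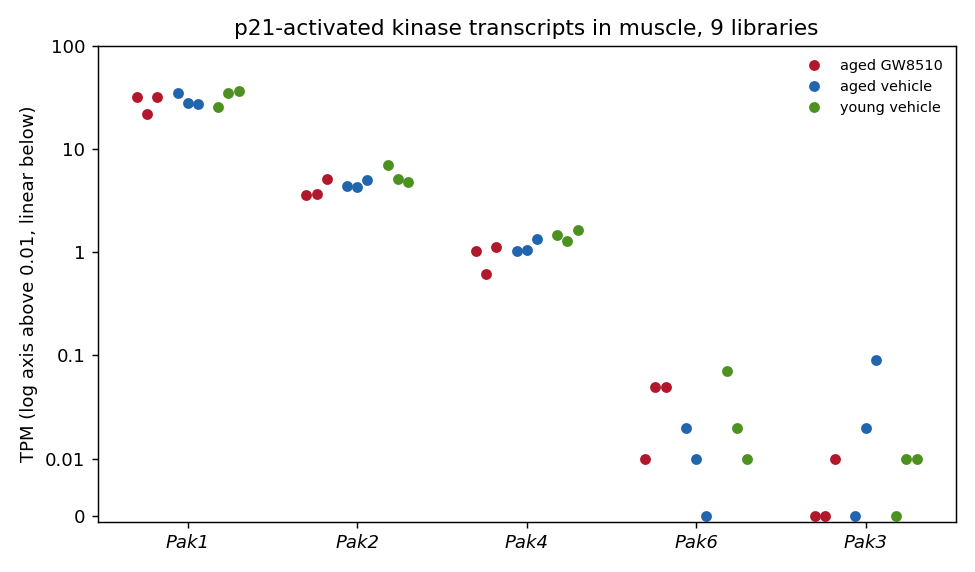
Deposited TPM of the 5 kinases in each of the 9 libraries (vertical axis logarithmic above 0.01 TPM and linear below it), with aged GW8510, aged vehicle and young vehicle libraries side by side within each gene. Pak1, Pak2 and Pak4 occupy separate ranges, whereas Pak6 and Pak3 stay at or below 0.09 TPM.

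Pak1 therefore made up most of the family's measured transcripts. Its share of the summed TPM of the 5 kinases averaged 84.9 ± 2.26% in aged GW8510, 83.7 ± 2.85% in aged vehicle and 81.5 ± 5.49% in young vehicle libraries (SD, n = 3 each). The share of Pak2 averaged 12.3 ± 2.30% in aged GW8510, 12.9 ± 2.02% in aged vehicle and 14.7 ± 4.97% in young vehicle libraries. Pak4 made up 2.69 ± 0.318% in aged GW8510, 3.22 ± 0.716% in aged vehicle and 3.72 ± 0.584% in young vehicle libraries. The shares of Pak1 and Pak2 overlapped between all groups, and that of Pak4 overlapped except between aged GW8510 (2.33% to 2.93%) and young vehicle (3.10% to 4.26%). The library with the most unusual makeup was young vehicle 2, in which Pak2 reached 20.4% and Pak1 was down to 75.1%, and its Pak1 to Pak2 ratio of 3.68 in TPM lay below the 5.41 to 9.03 of the other 8 libraries. These shares were computed after the values had been seen.

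Pak1 (ENSMUSG00000030774, chromosome 7 from 97788541 to 97912381, plus strand, GRCm38) is the group I kinase best known in muscle. Levels between libraries are given below as CPM, which set each count against the total of its library after TMM scaling. Pak1 had 79.2, 56.2 and 79.9 CPM in aged GW8510 libraries 1, 3 and 4. It had 85.3, 70.1 and 54.2 CPM in aged vehicle libraries 1, 3 and 4, and 58.4, 83.3 and 98.5 CPM in young vehicle libraries 2, 3 and 4. The 3 groups overlapped, and in each of them the libraries differed more than the group means did. The group means were 71.8 ± 13.5 CPM in aged GW8510, 69.8 ± 15.5 CPM in aged vehicle, against 80.1 ± 20.3 CPM in young vehicle (SD, n = 3 each).

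For Pak1 the log2 fold change of aged GW8510 over aged vehicle was 0.04 ± 0.24 (SE) and a 95% interval of 0.709-fold to 1.49-fold (edgeR quasi-likelihood, Benjamini-Hochberg adjusted p = 0.993). Its sign changed in 5 of 17 alternative settings, with the lowest value, -0.13, without aged vehicle library 4. For aged vehicle over young vehicle Pak1 had a log2 fold change of -0.20 with an interval of 0.602-fold to 1.26-fold (edgeR quasi-likelihood, Benjamini-Hochberg adjusted p = 0.682). The value for aged GW8510 over young vehicle was -0.16, with an interval of 0.619-fold to 1.30-fold (edgeR quasi-likelihood, Benjamini-Hochberg adjusted p = 0.775). The spread between libraries around the group means, given by edgeR as a biological coefficient of variation, was 22.8% for Pak1, close to the middle of the genes tested.

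Pak2 (ENSMUSG00000022781, chromosome 16 from 32016290 to 32079342, minus strand) is the broadly expressed group I kinase, which can also be activated by caspase cleavage during apoptosis. Pak2 had 21.1, 22.3 and 26.9 CPM in aged GW8510 libraries 1, 3 and 4. It had 22.6, 24.2 and 23.5 CPM in aged vehicle libraries 1, 3 and 4, and 31.1, 26.4 and 24.9 CPM in young vehicle libraries 2, 3 and 4. The aged vehicle libraries lay close together and all below the young vehicle libraries, whereas the aged GW8510 libraries enclosed the aged vehicle range and reached into the young range. The means were 23.4 ± 3.07 CPM in aged GW8510, 23.5 ± 0.795 CPM in aged vehicle, against 27.4 ± 3.21 CPM in young vehicle (SD, n = 3 each).

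The log2 fold change of Pak2 for aged vehicle over young vehicle was -0.23 ± 0.15 (SE) and a 95% interval of 0.680-fold to 1.07-fold (edgeR quasi-likelihood, Benjamini-Hochberg adjusted p = 0.417). It was also -0.23 for aged GW8510 over young vehicle, with an interval of 0.679-fold to 1.07-fold (edgeR quasi-likelihood, Benjamini-Hochberg adjusted p = 0.469). Both comparisons share the young vehicle libraries. Without young vehicle library 2, the library with the highest Pak2 level, these values were -0.14 and -0.15. Between aged GW8510 and aged vehicle the fold was 0.998 with an interval of 0.794-fold to 1.26-fold (edgeR quasi-likelihood, Benjamini-Hochberg adjusted p = 1.0). Pak2 was the steadiest of the 3 kinases, with a biological coefficient of variation of 16.0%, and 7.79% of the genes tested had a smaller one.

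Pak4 (ENSMUSG00000030602, chromosome 7 from 28558819 to 28598185, minus strand) is the founding group II kinase, an effector of Cdc42 in actin organisation. Its expected counts were low, at 66, 41 and 64 in aged GW8510 libraries 1, 3 and 4, 67, 64 and 69 in aged vehicle libraries 1, 3 and 4, and 91, 76 and 85 in young vehicle libraries 2, 3 and 4. Scaled, Pak4 had 3.0, 1.82 and 2.85 CPM in aged GW8510, 2.44, 2.62 and 2.99 CPM in aged vehicle, and 3.11, 3.21 and 3.32 CPM in young vehicle libraries. In CPM all 6 aged libraries lay below the 3 young libraries, by a narrow margin (2.996 in aged GW8510 library 1, 3.112 in young vehicle library 2). The share of all genes tested with that joint order was not computed. In TPM the order did not hold, with 1.33 in aged vehicle library 4 and 1.28 in young vehicle library 3. The aged GW8510 range in CPM enclosed the aged vehicle range, with aged GW8510 library 3 the lowest. The means were 2.55 ± 0.644 CPM in aged GW8510, 2.68 ± 0.281 CPM in aged vehicle, against 3.21 ± 0.102 CPM in young vehicle (SD, n = 3 each).

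Pak4 did not pass the threshold for aged vehicle over young vehicle, with a log2 fold change of -0.26 ± 0.25 (SE) and a 95% interval of 0.566-fold to 1.23-fold (edgeR quasi-likelihood, Benjamini-Hochberg adjusted p = 0.590). It was -0.33 for aged GW8510 over young vehicle, with an interval of 0.538-fold to 1.17-fold (edgeR quasi-likelihood, Benjamini-Hochberg adjusted p = 0.541), and without aged GW8510 library 3 it was -0.14. It was -0.07 for aged GW8510 over aged vehicle, with an interval of 0.644-fold to 1.41-fold (edgeR quasi-likelihood, Benjamini-Hochberg adjusted p = 0.985), and without aged GW8510 library 3 the sign turned to 0.12. At 41 to 91 counts per library, counting error adds to the spread of Pak4 more than to that of Pak1, which had 1251 to 2525 counts.

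**Figure D2:**
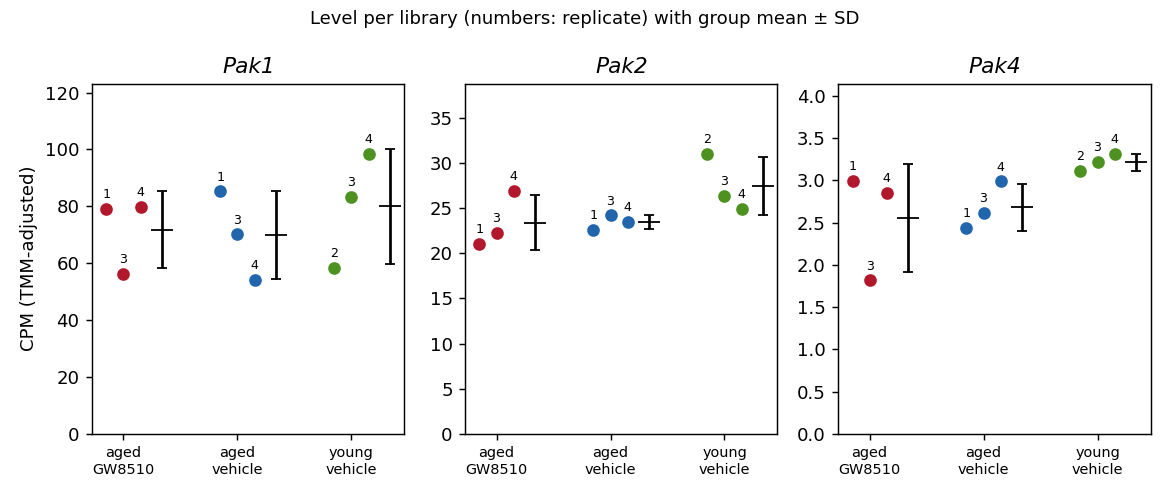
CPM of Pak1, Pak2 and Pak4 in each library (points, with the replicate number of the library), with the group mean and SD beside them (n = 3 per group) and axes starting at 0. The 3 groups overlap for Pak1, the aged vehicle libraries lie below the young vehicle libraries for Pak2, and all aged libraries lie below the young vehicle libraries for Pak4.

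The absence of overlap between groups was common in these data. For aged vehicle over young vehicle, 2 of 3 kinases (Pak2 and Pak4) had no overlap in CPM, where 26.2% of all genes tested had none in either direction. For aged GW8510 over young vehicle 1 of 3 (Pak4) had none, against 25.7% of all genes tested, and for aged GW8510 over aged vehicle 0 of 3 had none, against 7.22%. In TPM, aged vehicle and young vehicle overlapped for Pak2 (4.29 to 5.03 against 4.84 to 7.0). They also overlapped for Pak4 (1.02 to 1.33 against 1.28 to 1.63). Pak4 in aged GW8510 (0.61 to 1.13 TPM) stayed below young vehicle. The log2 fold change was below 0 for 3 of 3 kinases in both comparisons with the young group, where 48.9% (aged vehicle) and 48.7% (aged GW8510) of all genes tested lay below 0. The median log2 fold change of the 3 kinases was -0.23 for aged vehicle over young vehicle and -0.23 for aged GW8510 over young vehicle, against 0.01 over all genes tested in each. For aged GW8510 over aged vehicle, 2 of 3 lay below 0 with a median of -0.002, against 49.1% of all genes below 0 and a median of 0.005. With 3 genes, these counts are a description only.

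**Figure D3:**
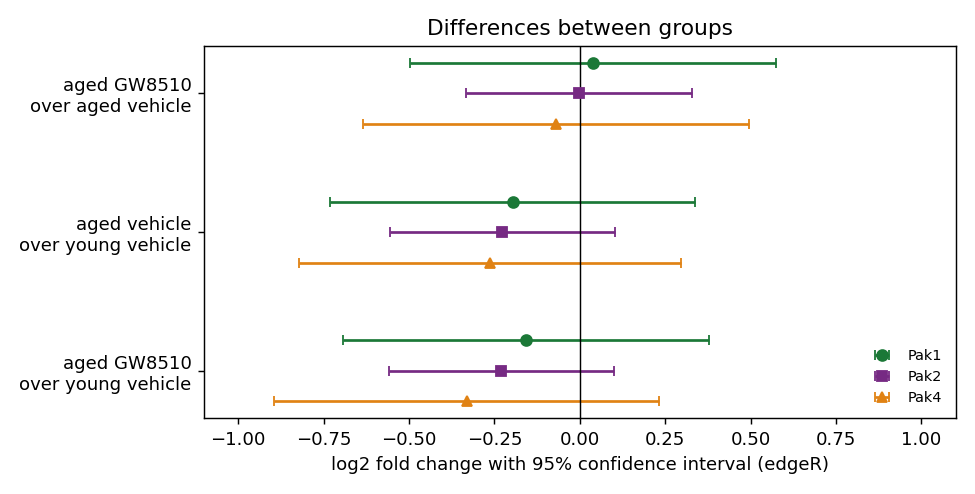
Log2 fold changes of Pak1, Pak2 and Pak4 with 95% confidence intervals from edgeR in the 3 comparisons. Every interval crosses 0, and the one that reaches lowest, for Pak4 in aged GW8510 over young vehicle, runs from -0.89 to 0.23.

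Pak3 (ENSMUSG00000031284, chromosome X from 143518591 to 143797796, plus strand) is the group I kinase known chiefly from neurons. It had 0, 0 and 2 counts in aged GW8510 libraries 1, 3 and 4, 0, 5 and 2 counts in aged vehicle libraries 1, 3 and 4, and 0, 1 and 1 counts in young vehicle libraries 2, 3 and 4. It lay at or below a floor of 3 counts in 8 of 9 libraries and was exactly 0 in 4 of them. Aged vehicle library 3 alone exceeded the floor, which corresponds to 0.103 to 0.136 CPM in these libraries and covers counting error only.

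Pak6 (ENSMUSG00000074923, chromosome 2 from 118663303 to 118698020, plus strand) is a group II kinase first described in human cells as a partner of the androgen receptor. It had 1, 4 and 5 counts in aged GW8510 libraries 1, 3 and 4, 2, 1 and 0 counts in aged vehicle libraries 1, 3 and 4, and 6, 2 and 1 counts in young vehicle libraries 2, 3 and 4. It lay at or below the floor in 6 of 9 libraries, and the groups overlapped. Neither Pak3 nor Pak6 passed the filter on low counts, and no fold is given for them, since they lay at or close to the floor in every group. Expression below the floor was not detectable at this depth.

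The deposited comparison tables hold the authors' own test of the same genes. In the authors' deposited table no kinase of the 5 was marked significant in any of the 3 comparisons. For aged vehicle over young vehicle the authors' deposited table gives log2 ratios of -0.19 for Pak1, -0.21 for Pak2 and -0.25 for Pak4. For aged GW8510 over aged vehicle the authors' deposited table gives 0.03 for Pak1, -0.01 for Pak2 and -0.08 for Pak4. For Pak6 in that comparison the authors' deposited table lists 1.93 with an adjusted p of 0.998, a ratio that rests on 10 counts in aged GW8510 against 3 counts in aged vehicle over 3 libraries each.

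Each count and its TPM together give the transcript length that the authors' quantification used in that library, since TPM divides by that length. For a gene with several transcripts the implied length moves toward that of the transcript that received more of the reads. This was computed after the values had been seen. The scale of each library was fitted to 635 single-transcript genes with at least 100 counts in every library, a count that Pak4 did not reach. For these same genes the implied length came within 1% of the deposited length for 80.9% to 81.9% of them in each library. That is no independent check. Pak1 has 3 protein-coding transcripts in the annotation, of 3065, 2794 and 508 bases, among others. Its implied length was 2500, 2542 and 2791 bases in aged GW8510 libraries 1, 3 and 4. It was 2824, 2677 and 2540 bases in aged vehicle libraries 1, 3 and 4, and 3057, 2766 and 3061 bases in young vehicle libraries 2, 3 and 4.

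In 2 young libraries the Pak1 value thus lay near the longest transcript, and in every aged library it was at most 2824 bases, but young vehicle library 3 fell inside the aged range. The mean differed by -281 bases for aged vehicle against young vehicle (exact permutation test, two-sided, p = 0.2) and by -350 bases for aged GW8510 against young vehicle (exact permutation test, two-sided, p = 0.2). It differed by -69 bases for aged GW8510 against aged vehicle (exact permutation test, two-sided, p = 0.6). With 3 libraries against 3, the smallest p this test allows is 0.1, and these 3 p-values are of 9 computed and are not adjusted. By its definition TPM is higher for the same count where the length is shorter. The mean of Pak1 in aged vehicle was 0.873 of that in young vehicle by fitted CPM. On the TPM scale the means were 30.0 ± 4.31 in aged vehicle and 32.4 ± 5.76 in young vehicle (SD, n = 3 each). These scales also differ by the TMM scaling, and the part of the implied length in their difference was not tested.

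Pak2 has a single protein-coding transcript in the annotation, of 5741 bases, and its implied length stayed between 5574 and 5726 bases in all libraries. Pak4 has 2 protein-coding transcripts, of 2899 and 2611 bases. The implied length of Pak4 was 2836 to 2902 bases in aged GW8510, 2634 to 2831 bases in aged vehicle and 2366 to 2897 bases in young vehicle libraries. The aged GW8510 range lay just above the aged vehicle range, with a difference in means of 129 bases (exact permutation test, two-sided, p = 0.1, the smallest it can give), and young vehicle library 4 was shorter than all others. At 41 to 91 counts per library, a few reads set the Pak4 value.

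**Figure D4:**
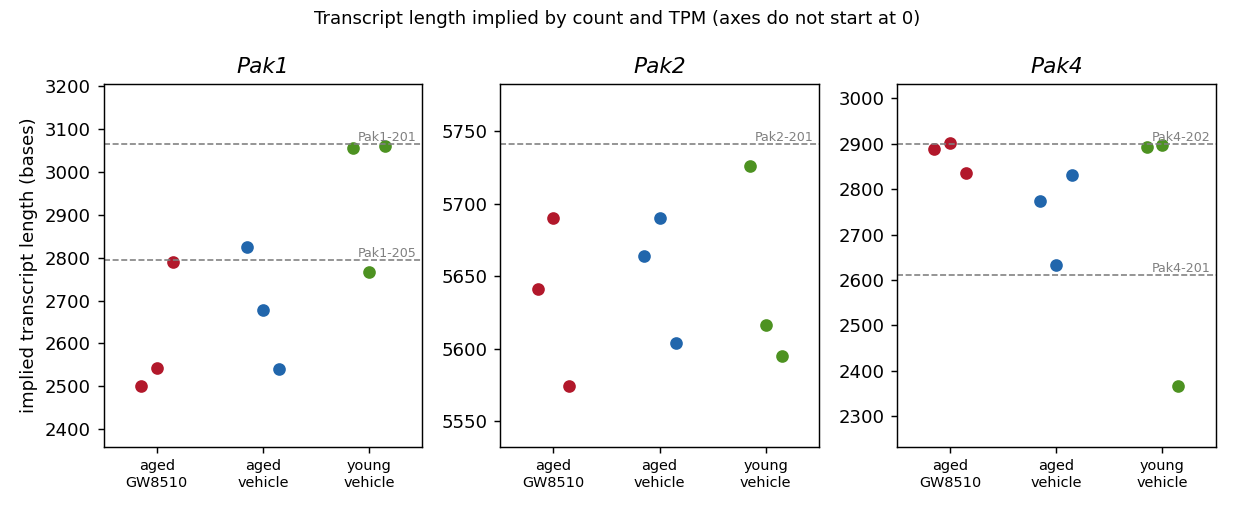
Transcript length implied by the deposited count and TPM for Pak1, Pak2 and Pak4 in each library (points), in bases, with dashed lines at the protein-coding transcripts of the annotation that fall within the axis, which does not start at 0. For Pak1, young vehicle libraries 2 and 4 lie at the longest transcript and the aged libraries between 2500 and 2824 bases.

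The genes whose log2 CPM followed each kinase most closely over the 9 libraries are given as a description, since the 9 points share libraries, depth and groups and 8670 genes were searched. Closest to Pak1 were St3gal6, a sialyltransferase gene (Pearson r = 0.923), the cyclin G gene Ccng1 (0.915) and the kinase gene Map3k10 (0.913). Closest to Pak2 were Bcor, which encodes a transcriptional corepressor (0.984), Fkbp15 (0.962) and Fndc3b (0.947). Closest to Pak4 were Parp16, an ADP-ribosyltransferase gene (0.943), and Atp6v0a1, a subunit gene of the vacuolar proton pump (0.934). These stayed between 0.909 and 0.987 when each group's mean was removed. The genes were picked for high r over these same libraries, so this is no separate evidence of likeness within groups. Between the kinases themselves the correlation was -0.08 for Pak1 and Pak2, 0.40 for Pak1 and Pak4 and 0.46 for Pak2 and Pak4. With each group's mean removed, these were -0.37 for Pak1 and Pak2, 0.33 for Pak1 and Pak4 and 0.10 for Pak2 and Pak4.

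Genes around the kinases were taken as 3 lists of 45 different genes, of which 44 were tested, chosen with earlier results of these data known. No gene of the lists passed the threshold in any comparison, against the shares of all genes called given above. Of the 15 activators and adaptors, 14 were tested and Rhov was too low. Their median log2 fold change was -0.02 for aged GW8510 over aged vehicle, 0.04 for aged vehicle over young vehicle and -0.13 for aged GW8510 over young vehicle. The medians over all genes tested were between 0.005 and 0.01 in the 3 comparisons.

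Nearest to the threshold was Arhgef7, which encodes beta-PIX, the exchange factor for Rac and Cdc42 that binds the kinases directly. Arhgef7 had 28.5, 38.1 and 39.4 CPM in aged GW8510 libraries 1, 3 and 4, 28.5, 34.3 and 31.3 CPM in aged vehicle libraries 1, 3 and 4, and 50.3, 51.5 and 55.1 CPM in young vehicle libraries 2, 3 and 4. All 6 aged libraries lay below the 3 young libraries, an order whose share over all genes tested was not computed, and the aged groups overlapped each other. Its log2 fold change was -0.74 for aged vehicle over young vehicle ± 0.16 (SE) (edgeR quasi-likelihood, Benjamini-Hochberg adjusted p = 0.0566). Over 17 alternative settings that adjusted p ran from 0.00172 to 0.288 and passed in 3 (DESeq2, no filter, and without aged GW8510 library 1), and the log2 fold change ran from -0.81 to -0.66. Arhgef7 had -0.57 for aged GW8510 over young vehicle (edgeR quasi-likelihood, Benjamini-Hochberg adjusted p = 0.109), and over the 17 settings this adjusted p ran from 0.0264 to 0.335 and passed with DESeq2 alone.

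Other activators lay further from the threshold. The GTPase gene Cdc42 averaged 245.7 ± 30.9 CPM in aged vehicle, against 188.2 ± 19.8 CPM in young vehicle libraries, with no overlap (edgeR quasi-likelihood, Benjamini-Hochberg adjusted p = 0.210). The adaptor gene Nck2, whose product recruits group I kinases to receptors at the membrane, averaged 11.8 ± 0.183 CPM in aged GW8510 and 16.5 ± 1.38 CPM in young vehicle (edgeR quasi-likelihood, Benjamini-Hochberg adjusted p = 0.163). Its relative Nck1 averaged 24.1 ± 2.39 CPM in aged GW8510, against 20.6 ± 1.14 CPM in aged vehicle, with no overlap (edgeR quasi-likelihood, Benjamini-Hochberg adjusted p = 0.934). Rac2, the haematopoietic Rac gene, averaged 0.884 ± 0.463 CPM in aged GW8510, against 2.40 ± 2.09 CPM in aged vehicle, which overlapped.

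Of the 7 inhibitors and phosphatases all were tested, with medians of 0.08 for aged GW8510 over aged vehicle, -0.10 for aged vehicle over young vehicle and 0.16 for aged GW8510 over young vehicle. Ppm1e, a phosphatase that dephosphorylates the kinases, averaged 1.61 ± 0.465 CPM in aged GW8510, against 0.688 ± 0.254 CPM in aged vehicle with no overlap. Its log2 fold change was 1.22 ± 0.39 (SE) (edgeR quasi-likelihood, Benjamini-Hochberg adjusted p = 0.934), and over the 17 settings it ran from 0.14 to 1.5. This gene was low, with means of 0.247 TPM in aged GW8510 and 0.127 TPM in aged vehicle. The settings include a pseudocount of 1 TPM, which shrinks a log2 fold change at such levels. Ppm1e averaged 1.12 ± 0.130 CPM in young vehicle libraries. Inka1, a gene for an inhibitor of Pak4, averaged 2.56 ± 0.664 CPM in aged GW8510, 1.88 ± 0.439 CPM in aged vehicle, against 1.81 ± 0.305 CPM in young vehicle. Nisch, which encodes the Pak1-binding protein nischarin, averaged 57.9 ± 2.83 CPM in aged vehicle, against 65.0 ± 6.41 CPM in young vehicle, which overlapped.

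All 24 genes of the substrate and cofilin list were tested, and 14 lay below 0 for aged vehicle over young vehicle, with a median of -0.15. In aged GW8510 over aged vehicle 10 of 24 lay below 0, with a median of 0.06, and for aged GW8510 over young vehicle 15 of 24, with a median of -0.05. Vim, the intermediate filament gene of mesenchymal cells, averaged 76.6 ± 28.9 CPM in aged vehicle, against 132.4 ± 17.5 CPM in young vehicle with no overlap (edgeR quasi-likelihood, Benjamini-Hochberg adjusted p = 0.155). Over the 17 settings that adjusted p ran from 0.0435 to 0.442, and Vim passed only without aged vehicle library 3. In aged GW8510 Vim averaged 117.0 ± 22.7 CPM, which overlapped aged vehicle (edgeR quasi-likelihood, Benjamini-Hochberg adjusted p = 0.934). Tbcb, the gene for a tubulin-folding cofactor phosphorylated by Pak1, averaged 24.9 ± 4.52 CPM in aged vehicle, against 16.6 ± 1.86 CPM in young vehicle with no overlap (edgeR quasi-likelihood, Benjamini-Hochberg adjusted p = 0.151). Ssh1, a gene for a phosphatase that reactivates cofilin, averaged 6.54 ± 0.618 CPM in aged GW8510 and 8.98 ± 1.64 CPM in young vehicle (edgeR quasi-likelihood, Benjamini-Hochberg adjusted p = 0.313). Arpc1b, a subunit gene of the actin-nucleating Arp2/3 complex, averaged 22.1 ± 3.10 CPM in aged GW8510, against 16.7 ± 3.53 CPM in aged vehicle, which overlapped.

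The cofilin genes, singled out after their values were seen, had log2 fold changes of opposite sign for aged vehicle over young vehicle. Cfl2, the muscle form, had 0.62 ± 0.24 (SE) (edgeR quasi-likelihood, Benjamini-Hochberg adjusted p = 0.207), and Cfl1, the form of non-muscle cells, had -0.54 ± 0.20 (SE) (edgeR quasi-likelihood, Benjamini-Hochberg adjusted p = 0.190). Cfl2 had 304.2, 289.6 and 517.4 CPM in aged vehicle libraries 1, 3 and 4, against 211.5, 245.2 and 266.5 CPM in young vehicle libraries 2, 3 and 4. Aged vehicle library 4 was thus the highest for Cfl2, and the other aged vehicle libraries also lay above the young libraries.

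**Figure D5:**
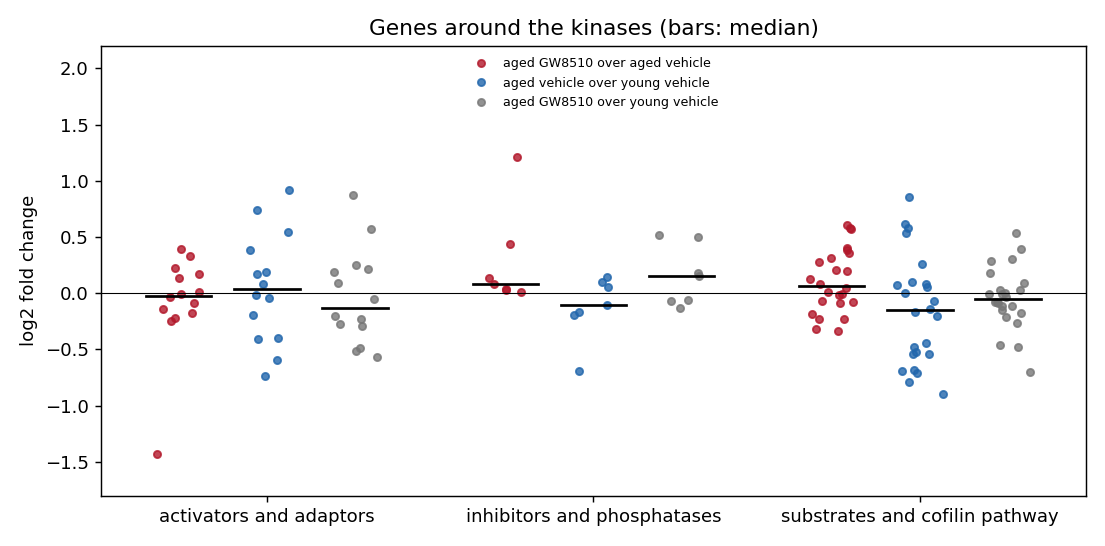
Log2 fold changes of the tested genes in the 3 lists of genes around the kinases (points) for each comparison, with the median of each list as a bar. No point passed the threshold, and the list medians lie between -0.15 and 0.16.

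The libraries held 21718965 to 27437970 counts, and all 13 markers of skeletal muscle fibres were tested, with a summed level of 123600 to 147900 CPM in aged GW8510, 119900 to 152000 CPM in aged vehicle and 139400 to 180100 CPM in young vehicle. By marker, the median log2 fold change of the fibre list was 0.09 for aged vehicle over young vehicle (5 of 13 below 0). It was 0.02 for aged GW8510 over young vehicle (6 of 13 below 0). Of the markers of other cells tested for aged vehicle over young vehicle, 1 of 10 fibroblast markers was called, as lower, and none of the endothelial, tendon, Schwann cell and neuron, adipocyte or satellite cell markers was (edgeR quasi-likelihood, 1.22% of all genes called). For aged GW8510 over young vehicle 1 of 6 adipocyte markers was called, as higher (edgeR quasi-likelihood, 0.751% of all genes called). Summed levels are given for description. The 10 fibroblast markers, all tested, summed to 295.7 to 628 CPM in aged GW8510 and 143 to 570.6 CPM in aged vehicle, against 1251 to 2709 CPM in young vehicle libraries. The 5 tested of 6 tendon markers summed, with the sixth, to 58.0 to 96.2 CPM in aged GW8510 and 39.2 to 100.1 CPM in aged vehicle, against 159.2 to 328.1 CPM in young vehicle. The 11 Schwann cell and neuron markers, 7 of them tested, summed to 13.0 to 84.1 CPM in aged GW8510 and 14.6 to 73.9 CPM in aged vehicle, against 78.3 to 111.0 CPM in young vehicle. The 10 endothelial markers summed to 353.2 to 588.1 CPM in aged GW8510 and 297.8 to 404.0 CPM in aged vehicle, against 419.2 to 510.8 CPM in young vehicle. The 6 adipocyte markers summed to 259.3 to 380.3 CPM in aged GW8510, above the 160.1 to 203.2 CPM in aged vehicle and 168.3 to 212.3 CPM in young vehicle. Averaged over markers on the log2 scale instead, with each marker centred on its mean over libraries, the adipocyte list was high in aged GW8510 library 4 (2.13) and not in aged GW8510 libraries 1 (-0.57) and 3 (-0.81), against -0.91 to 0.004 in aged vehicle and -0.62 to 0.84 in young vehicle libraries. The 6 satellite cell markers, whose sum includes the fibre gene Des, ran from 2798 to 4909 CPM in aged GW8510 and 3221 to 7140 CPM in aged vehicle, against 2264 to 2877 CPM in young vehicle. The median log2 fold change of these 6 markers ran the other way, at -0.22 for aged vehicle over young vehicle (3 of 6 below 0) and -0.52 for aged GW8510 over young vehicle (5 of 6 below 0). The sums of the macrophage, smooth muscle and pericyte, and erythroid markers overlapped between all groups. By marker, 9 of 9 macrophage markers lay below 0 for aged vehicle over young vehicle (median log2 fold change -0.80). For aged GW8510 over young vehicle 8 of 9 did (-0.52). For smooth muscle and pericyte markers these were 7 of 8 (-0.44) and 3 of 8 (0.12). For erythroid markers they were 0 of 4 tested in both (1.02 and 1.4). None of these markers was called. Of the 8 T, NK and B cell markers 1 was high enough to test. The T, NK and B cell sum was 0.636 to 1.34 CPM in aged GW8510, against 0.80 to 13.6 CPM in aged vehicle, with the highest value in library 4, and 1.64 to 3.42 CPM in young vehicle, and its part in the level of Rac2 was not tested. No marker of the 11 cell type lists was at 0 in all 9 libraries. The part of these cells in the levels of Pak2, Pak4, Arhgef7 or Vim was not tested, and in whole muscle fewer cells of a type and less RNA per cell cannot be told apart.

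Aged vehicle library 4 stood apart, with a mean correlation with its own group of 0.943 where the other libraries had 0.956 to 0.971. Without it, the log2 fold changes for aged vehicle over young vehicle were -0.04 for Pak1, -0.23 for Pak2 and -0.35 for Pak4. They were -0.13 for Pak1, -0.01 for Pak2 and 0.004 for Pak4 for aged GW8510 over aged vehicle. None of the 3 kinases passed the threshold without it.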

How the data were processed

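RNA from 9 muscle libraries in 3 groups of 3 was analysed from 3 tables, 1 per pair of groups, that the authors deposited. The authors deposited expected counts per gene and library (91.4% of them whole) and TPM values, per the file headers. For each pair and gene the authors also deposited their log2 ratio and their p-value, raw and adjusted. Per the submitters' processing notes the build was GRCm38 and the tools were CASAVA, HISAT2, StringTie, RSEM, DESeq2 and edgeR, whose versions and roles are not given in the sources used here, nor is strand use. GENCODE M21 held all 55536 gene IDs and was the source of coordinates, transcripts and sequences.

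Expected counts were rounded to whole numbers, filtered with filterByExpr (14384 genes left, 29661 genes without any count), scaled by TMM and tested with edgeR 4.0.16 (R 4.3.3), by its quasi-likelihood F test with all 9 libraries in 1 fit, two-sided, with Benjamini-Hochberg adjustment over all genes tested and a threshold of 0.05. The test was also run on counts simulated from its own estimate of the spread, with changes larger than those fitted for the kinases. That run cannot judge changes as small as theirs. A kinase counted as too low where the filter removed it or where it had 3 counts or fewer in at least 5 libraries. Likeness used log2 CPM (prior count 2) of protein-coding genes with a mean of at least 5 CPM. Beside the kinases, the genes named are the 2 of each pathway list with the smallest p in each comparison and the 3 genes most like each kinase, of which 1 is not reported here. Cfl1 and Cfl2 were added after their values were seen. The kinases, lists and rules were chosen with earlier results of these data known. The implied length was the count divided by TPM, scaled per library to single-transcript genes. Alternatives used DESeq2 1.42.0, limma 3.58.1 (voom, and the deposited TPM on the log2 scale with pseudocounts of 0.1 and 1), RLE factors, no filter, the compared libraries alone, a replicate block and each library left out. Totals ran from 21718965 to 27437970 counts, so that 3 counts were 0.103 to 0.136 CPM.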

Additional observations from a re-analysis of the deposited data

How the results depend on the processing

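Under 17 alternatives no kinase of Pak1, Pak2 and Pak4 passed the threshold in any comparison. The log2 fold changes of Pak2 and Pak4 in both comparisons with young vehicle, and of Pak1 for aged vehicle over young vehicle, kept their sign under all 17. For aged GW8510 over aged vehicle, Pak1 became -0.0738 on log2(TPM + 0.1) and -0.0711 on log2(TPM + 1). The median over all genes tested was -0.139 and -0.0974 on these scales, so Pak1 stayed above that median. Leaving out each library in turn, Pak1 ran from -0.127 to 0.206, Pak2 from -0.125 to 0.0653 and Pak4 from -0.203 to 0.124 in that comparison, and Pak1 for aged GW8510 over young vehicle ran from -0.358 to 0.0191, positive only without young vehicle library 4.

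No pairing by replicate number was seen. Same-numbered libraries had correlations of their deviations between -0.209 and 0.138, and differently numbered ones between -0.229 and 0.271. With 3 libraries per group this cannot exclude a pairing. With the replicate block, Pak1 was 0.0384, Pak2 -0.00754 and Pak4 -0.0886 for aged GW8510 over aged vehicle. It gave -0.498, -0.0799 and -0.320 for aged vehicle over young vehicle, and -0.459, -0.0874 and -0.408 for aged GW8510 over young vehicle. The block called 5 genes in all for aged vehicle over young vehicle and 8 for aged GW8510 over young vehicle. Replicate number 2 occurs in the young group alone and number 1 in the aged groups alone. The block term therefore fits young vehicle library 2 exactly, and the young level in this fit rests on young vehicle libraries 3 and 4.

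Over all genes, the 175 calls for aged vehicle over young vehicle became 974 with DESeq2, 699 with no filter and 50 with the 6 libraries alone, and 19 to 148 with 1 library left out. The 108 calls for aged GW8510 over young vehicle became 870, 553 and 469 under the same settings, 176 and 237 on the TPM scales, and 25 to 594 with 1 library left out. For aged GW8510 over aged vehicle edgeR called 0 genes (647 at an unadjusted p under 0.05), DESeq2 11, limma-voom 0 and the fit with no filter 5, and at most 2 with 1 library left out. The cause was not tested. Counts of 41 to 91 limit Pak4, and counts of 0 to 6 leave Pak3 and Pak6 unmeasured.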
